A study of Homo sapiens with 24 samples.

Results

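MER41 is a family of endogenous retrovirus sequence, and its copies were followed here as RNA in 3 hepatocellular carcinoma cell lines. Members were taken by name from the deposited table of repeat loci: every locus called MER41-int, MER41A, MER41B, MER41C, MER41D, MER41E or MER41G, which gave 8910 of 5298130 loci. Of these, 5270 lay outside every annotated gene body, 3490 overlapped one, and 150 sat on other contigs and held 0 reads. HepG2, SNU398 and SNU475, bought from ATCC and labelled wild type, each received 3 days of daily dosing with DPBS (buffered saline, the control), 100 nM decitabine (5-Aza-CdR), 500 nM GSK-126, or both drugs. HepG2 and SNU398 were harvested on day 14 and SNU475 on day 21. Line and harvest day therefore cannot be told apart where SNU475 is compared with another line. Every one of the 12 groups has 2 libraries, A and B. The labels do not say that A and B are separate cultures, so p-values measure the spread between these libraries, which may be technical.

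A MER41 provirus once had an internal part with viral genes, here MER41-int, between a pair of long terminal repeats (LTRs), which carry promoter and enhancer sequence. Recombination left most copies as an LTR alone, and the letters A to G name LTR variants. In other cell types MER41 LTRs are known for binding IRF1 and other transcription factors that act after interferon gamma, and copies near AIM2, APOL1, IFI6 and SECTM1 have been studied as enhancers of those genes. Decitabine traps DNA methyltransferases and so lowers DNA methylation. GSK-126 blocks EZH2, which places the repressive histone mark H3K27me3. Both marks, with H3K9 methylation by SETDB1, which TRIM28 recruits, are known to silence retroviral copies.

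The 250 bases upstream of 3 interferon-linked genes are shown because their RNA is set beside the MER41 values, and they carry letters that interferon factors recognise. They come from RefSeq on GRCh38.p14 and are written 5′ to 3′ on the gene's strand, with matches in capitals. AIM2 (chr1:159076767-159077016, minus strand) holds 1 match, on either strand, to a pair of GAAA blocks with 2 free bases between them, the letters of an interferon response element, and IFI6 (chr1:27672193-27672442, minus strand) holds 3 of them. IRF1 (chr5:132490774-132491023, minus strand) holds 1 match to TTCNNNGAA, the core letters of a gamma interferon activation site.
AIM2: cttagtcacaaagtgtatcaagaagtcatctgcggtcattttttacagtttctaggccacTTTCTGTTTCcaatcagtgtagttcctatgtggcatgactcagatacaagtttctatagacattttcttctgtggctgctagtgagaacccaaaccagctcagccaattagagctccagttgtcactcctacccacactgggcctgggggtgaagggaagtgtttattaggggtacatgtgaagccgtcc
IFI6: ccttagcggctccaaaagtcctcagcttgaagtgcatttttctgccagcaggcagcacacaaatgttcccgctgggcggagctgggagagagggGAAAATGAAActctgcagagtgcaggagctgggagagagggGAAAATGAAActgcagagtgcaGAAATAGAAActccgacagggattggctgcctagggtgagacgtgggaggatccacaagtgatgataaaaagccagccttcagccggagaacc
IRF1: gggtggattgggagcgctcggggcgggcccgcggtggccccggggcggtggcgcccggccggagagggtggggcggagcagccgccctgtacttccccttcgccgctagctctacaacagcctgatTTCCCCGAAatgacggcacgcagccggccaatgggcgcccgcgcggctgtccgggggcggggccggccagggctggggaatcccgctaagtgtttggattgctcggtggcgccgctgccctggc
The IFI6 matches begin 156 bases before the gene start, the AIM2 match 190 bases and the IRF1 match 124 bases. Of 27305 promoters of that length, 3.07% hold the GAAA pair and 6.78% hold TTCNNNGAA on either strand. The same stretch of IRF9 holds 1 TTCNNNGAA, and those of SECTM1 and CXCL2 hold neither. A match is a description of letters and shows no binding. The sequences of the MER41 copies are not printed, since no hg19 genome was used here.

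Libraries held 32.6 to 60.37 M counted reads (median 50.78 M; M stands for 1e6), recovered from the deposited RPKM, which is reads per kilobase of locus and per 1e6 reads. Values below are RPM, reads per 1e6 reads, which is RPKM times length in kilobases. The 8 hepatocyte marker genes summed to 6680 to 11700 RPKM in the HepG2 groups, but to only 2.99 to 24 in SNU398 and 3.06 to 44 in SNU475. Mesenchymal markers showed the reverse order (0.193 to 2.99 RPKM in HepG2, 328 to 428 in SNU398, 179 to 336 in SNU475). Blood cell markers summed to at most 0.941 RPKM in any group. Because these are bulk RNA libraries, a change in RNA per cell and a change in the share of cells that carry it cannot be told apart.

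MER41 RNA was scarce, and most copies had no read. A library held 419 to 918 reads in MER41 outside gene bodies and 727 to 1830 inside. Outside, 1373 of 5270 loci (26.05%) had a read in any library, and inside 1286 of 3490 (36.85%). Only 41 outside loci and 71 inside loci reached 0.2 RPM in 2 or more libraries, the level required for a test. The 5 highest loci held 16.28% of outside MER41 RPM and 24.36% of inside RPM, and the 20 highest 33.85% and 46.92%. How reads that fit several copies were counted is not given in the sources used here, so the reads of near-identical copies may be split or lost.

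The LTR variants differed in how much of their signal 1 copy carried. Outside genes, MER41B (1669 loci) averaged 4.08 RPM over the 24 libraries, MER41A (1445 loci) 3.25 and MER41-int (1054 loci) 2.45. MER41C averaged 1.27 RPM, MER41G 0.923, MER41D 0.657 and MER41E 0.554. Per length, on the RPKM scale, MER41G was highest at 0.029 and MER41-int lowest at 0.00326. A single locus held 91.17% of the MER41G signal, 56.47% of MER41E, 44.46% of MER41D and 31.8% of MER41C, against 9.53% of MER41-int, 7.24% of MER41B and 5.68% of MER41A. These shares are pooled over all groups, and in a single group 1 copy could hold far more or less: the MER41D locus by ETV7 read 0.0192 and 0.0416 RPM in HepG2 under DPBS, and a MER41B locus read 2.53 and 2.12 RPM in SNU398 under GSK-126.

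Position went with reads, and length with the chance of having one. The 1278 outside copies within 5 kb of a gene gave 16.87 reads per kb over all libraries, and the 3992 copies farther away gave 4.017. LTRs of up to 200 bp had a read in 17.08% of cases and those over 400 bp in 31.53%, but per kb the reads were close, at 7.768 and 8.287. Internal parts gave 3.903 reads per kb, while LTRs within 200 bp of an internal part (8.061) and LTRs standing alone (8.147) were close to each other. These figures describe the copies, and their part in the results below was not tested except by leaving out the copies near genes.

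**Figure D1:**
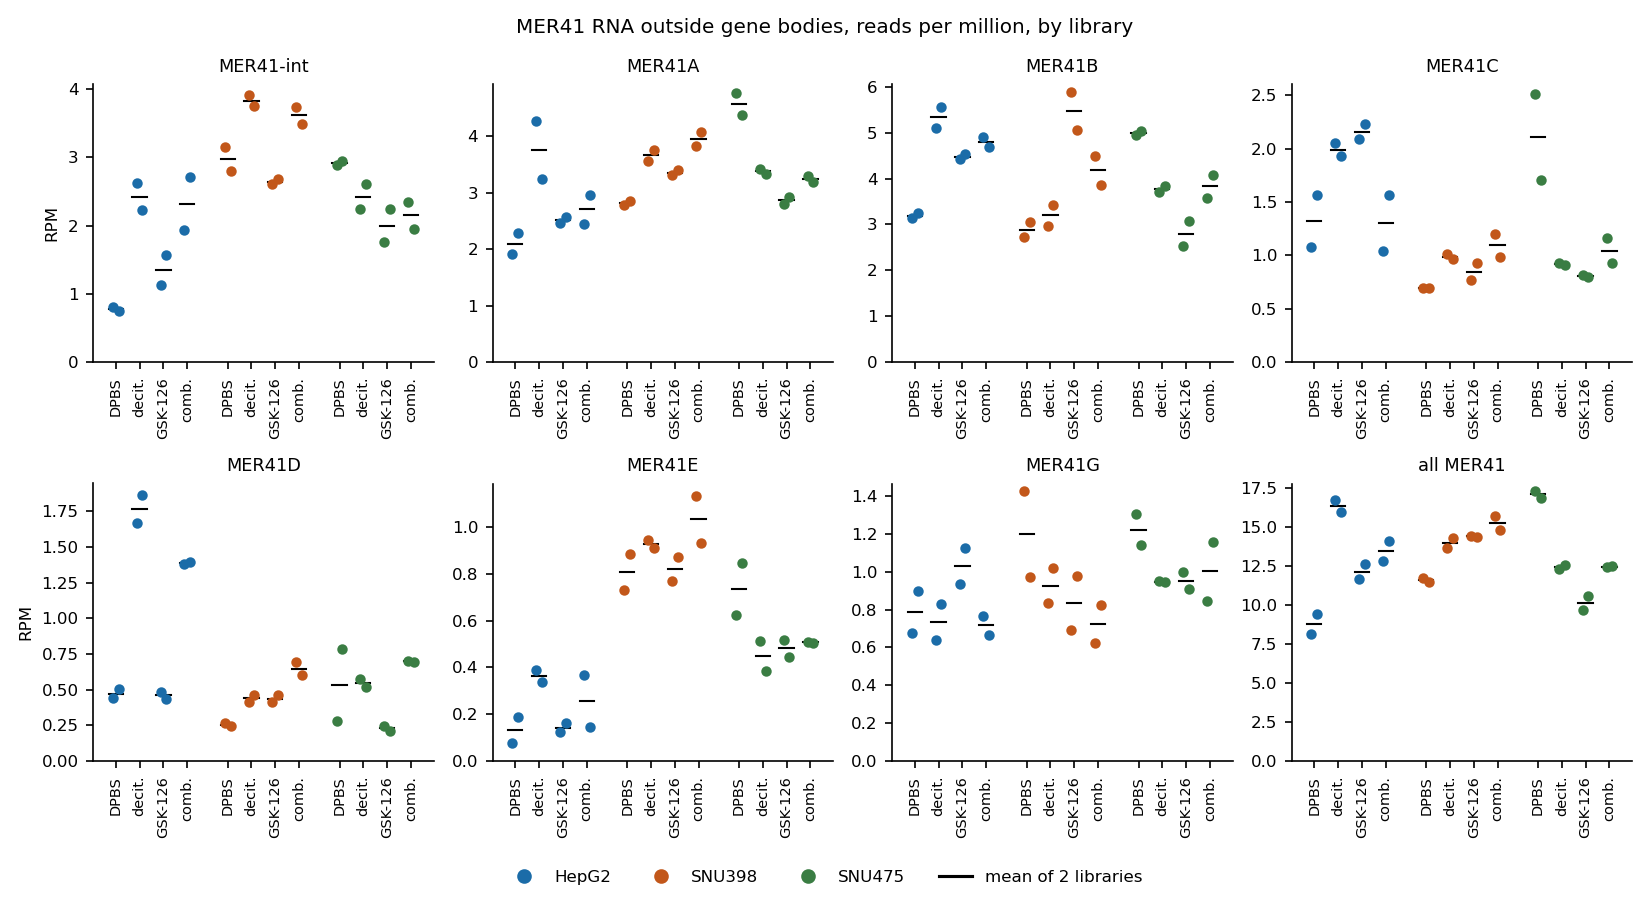
Each panel gives RPM (vertical axis) in a MER41 subfamily summed over its loci outside gene bodies, by treatment and line, with 1 point per library and a bar at the mean of 2 libraries. The panel of all MER41 shows HepG2 rising from 8.79 RPM under DPBS to 16.4 under decitabine, and SNU475 falling from 17.1 under DPBS to between 10.1 and 12.5.

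Summed over all copies outside genes, MER41 RNA moved in opposite directions in HepG2 and SNU475. HepG2 had 8.79 ± 0.913 RPM under DPBS (SD, n = 2), 16.4 ± 0.537 under decitabine, 12.1 ± 0.679 under GSK-126 and 13.5 ± 0.905 under both. The folds over DPBS were 1.863, 1.382 and 1.535, beside 1.83, 1.318 and 1.392 for all repeats outside genes. SNU398 had 11.6 ± 0.184 RPM under DPBS and folds of 1.201, 1.239 and 1.311, beside 1.082, 1.027 and 1.219 for all repeats. Of its 14.4 RPM under GSK-126, 1 MER41B locus, described below, held 2.32 RPM, and that locus had 0 reads under DPBS. SNU475 had 17.1 ± 0.346 RPM under DPBS and folds of 0.728, 0.593 and 0.73, beside 0.756, 0.786 and 0.72. In none of the 9 comparisons did the treated and DPBS libraries overlap. MER41 made up 0.2266% to 0.3728% of outside repeat RPM across libraries.

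Each subfamily was then tested with limma on log2(RPM + 0.5), across all 585 subfamilies that passed the filter outside genes, with Benjamini-Hochberg adjustment and a call at an adjusted p under 0.05. The standard error of a difference between 2 groups was the same in every comparison: 0.13 for MER41-int, 0.11 for MER41A, 0.10 for MER41B, 0.14 for MER41C, 0.145 for MER41D and 0.15 for MER41G. MER41E stayed under 1 RPM in all but 1 library and was not tested.

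In HepG2, decitabine raised 5 of the 6 tested subfamilies and lowered 0, where 82.7% of all subfamilies rose and 3.25% fell. MER41-int, which read 0.813 and 0.753 RPM in DPBS libraries A and B, read 2.625 and 2.22 under decitabine, a log2 change of 1.185 (adjusted p = 1.1e-12). MER41D went from 0.444 and 0.502 RPM to 1.67 and 1.86, a log2 change of 1.22. The MER41D change follows 1 copy, the locus by ETV7, which read 0.0192 and 0.0416 RPM under DPBS and 1.28 and 1.35 under decitabine. Without its highest locus MER41-int changed by 0.93. The changes of MER41-int and MER41D stood above the median of 0.71 over all subfamilies, while MER41A (0.71), MER41B (0.66) and MER41C (0.46) stood at or below it. MER41G, with a log2 change of -0.06, was not called.

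GSK-126 alone raised 3 of 6 in HepG2 and lowered 0, where 58.8% of all subfamilies rose and 4.79% fell. MER41-int read 1.135 and 1.56 RPM (log2 change 0.52), MER41B 4.42 and 4.53 (0.43) and MER41C 2.09 and 2.23 (0.55). MER41A (0.22), MER41D (-0.02) and MER41G (0.25) did not pass. Under both drugs 4 of 6 rose and 0 fell, where 43.6% of all subfamilies rose and 23.1% fell. MER41-int (1.93 and 2.705 RPM) was up by 1.12 and MER41D (1.38 and 1.395 RPM) by 0.96 on the log2 scale, beside a median of 0.17 over all subfamilies. Without its highest locus, on chromosome 8, MER41-int was up by 0.55, still called, and of the MER41D signal the ETV7 locus held 0.92 and 1.13 RPM. MER41B was up by 0.52 and MER41A by 0.30, and MER41C (-0.02) was back at its DPBS level.

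Adding GSK-126 to decitabine in HepG2 lowered MER41A (log2 change -0.40) and MER41C (-0.48), or 2 of 6 members, where 73.5% of all subfamilies fell and 5.81% rose. MER41-int (2.625 and 2.22 RPM under decitabine, 1.93 and 2.705 under both) overlapped between the groups. The combined change fell short of the sum of the single-drug log2 changes for 4 members: MER41-int by -0.58, MER41A by -0.63, MER41B by -0.57 and MER41C by -1.03, where 79.1% of all subfamilies were called short and 4.1% beyond. Leaving out DPBS library A ended the MER41C calls under decitabine (0.27) and GSK-126 (0.36) and the MER41A call under both drugs (0.20), which also ended without combination library B (0.19). Without decitabine library A the fall of MER41A was -0.23, and without combination library A that of MER41C was -0.27 and the MER41-int shortfall -0.38, all uncalled. Over copies at least 5 kb from a gene, the MER41-int change was 1.19 under decitabine and 1.38 under both, but 0.11 and uncalled under GSK-126, and the MER41-int shortfall turned to 0.0773, uncalled.

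SNU398 showed fewer changes. Decitabine raised 1 of 6, MER41A, from 2.78 and 2.85 RPM to 3.57 and 3.76 (log2 change 0.33, adjusted p = 0.025), and lowered 0, where 18.3% of all subfamilies rose and 2.05% fell. That call ended whichever of the 4 libraries was left out (log2 changes 0.29 to 0.36). GSK-126 raised 1 of 6, MER41B, from 2.72 and 3.06 RPM to 5.88 and 5.07 (0.82, adjusted p = 7.2e-09), where 17.6% of all subfamilies rose and 8.55% fell. A single copy carried that change: without its highest locus, described below, MER41B changed by 0.11, and without copies near genes by 0.10, both uncalled. MER41B was also the 1 member that fell short of the sum of the drugs (-0.48, where 5.81% were called short and 16.4% beyond). That shortfall turned to 0.23 without the same locus, and ended without DPBS library A (-0.40), GSK-126 library A (-0.38), decitabine library B (-0.39) or combination library B (-0.38).

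Under both drugs 4 of 6 rose in SNU398 and 1 fell, where 47.7% of all subfamilies rose and 2.05% fell. MER41D read 0.265 and 0.2475 RPM under DPBS and 0.692 and 0.603 under both drugs (log2 change 0.60). Of these, the locus by ETV7 held 0.0164 and 0.0175 RPM under DPBS and 0.208 and 0.311 under both drugs. MER41B rose by 0.46, MER41A by 0.43 and MER41C by 0.415, beside a median of 0.25 over all subfamilies. MER41G fell by 0.47, from 1.425 and 0.973 RPM to 0.623 and 0.8235. Most of this was 1 locus on chromosome 19, described below, which was not called by itself. It read 1.41 and 0.92 RPM under DPBS and 0.623 and 0.732 under both drugs. MER41C was not called without DPBS library A (0.42), DPBS library B (0.41) or combination library A (0.32), and MER41G was not called without DPBS library A (-0.27) or combination library A (-0.35). Adding GSK-126 to decitabine raised MER41B alone (0.34; 20.9% of all subfamilies rose and 0.855% fell), and this call ended without decitabine library A (0.25) or combination library A (0.24). Rescaling the libraries by gene factors moved the median of all subfamilies by 0.126 under GSK-126, and the calls from 103 higher and 50 lower to 204 and 26. For the shortfall the shift was -0.119, and 96 called beyond and 34 short became 52 and 71.

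SNU475 had less MER41 RNA under every treatment than under DPBS. Decitabine lowered 3 of 6 members and raised 0, where 61.9% of all subfamilies fell and 3.93% rose. MER41C went from 2.51 and 1.71 RPM under DPBS to 0.929 and 0.906 (log2 change -0.86), MER41A from 4.78 and 4.38 to 3.42 and 3.34 (-0.39), and MER41B from 4.94 and 5.03 to 3.72 and 3.84 (-0.36). The libraries of the groups did not overlap in any of these 3 subfamilies.

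GSK-126 lowered 5 of 6 in SNU475, where 57.9% of all subfamilies fell and 2.05% rose. MER41C read 0.818 and 0.8 RPM (log2 change -0.98), MER41B 2.525 and 3.08 (-0.74), MER41A 2.81 and 2.92 (-0.59), and MER41-int 1.76 and 2.24 against 2.89 and 2.95 under DPBS (-0.46). MER41D also passed (-0.46), but its DPBS libraries read 0.283 and 0.786, and without library B its change was -0.10. Under both drugs 4 of 6 fell, where 69.6% of all subfamilies fell and 4.96% rose: MER41C by 0.74, MER41A by 0.44, MER41-int by 0.37 and MER41B by 0.34 on the log2 scale. The MER41-int calls ended without GSK-126 library A (-0.32) and combination library B (-0.26), and the MER41B call under both drugs without combination library A (-0.26).

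Between decitabine and both drugs, 0 of 6 subfamilies differed by limma in SNU475, where 1.2% of all subfamilies rose and 3.59% fell. Counts were also 0 at an unadjusted p under 0.05 and with voom weights. Here the combined change lay above the sum of the single-drug changes for 4 members, MER41C by 1.10, MER41B by 0.75, MER41D by 0.65 and MER41A by 0.54, where 31.5% of all subfamilies did and 1.37% lay below. Without DPBS library B the MER41D value was 0.29 and uncalled. With the highest locus of each subfamily left out, 2 members were called instead of 4, and MER41D could not be tested. Copies far from genes changed in the same direction: over copies at least 5 kb away, MER41-int changed by -0.36 and MER41C by -1.06 under decitabine, both called. Without the highest MER41C locus, MER41C changed by -0.42 under decitabine, -0.62 under GSK-126 and -0.52 under both drugs, all called. These MER41C sums still held the other copy of a pair near LINC00910, described below. The means of that pair fell from 0.845 and 0.306 RPM under DPBS to 0.117 and 0.0484 under decitabine. All of MER41C fell from 2.11 to 0.918 RPM. A sum without both copies was not tested. Without its own highest locus, MER41B changed by -0.735 under GSK-126.

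**Figure D2:**
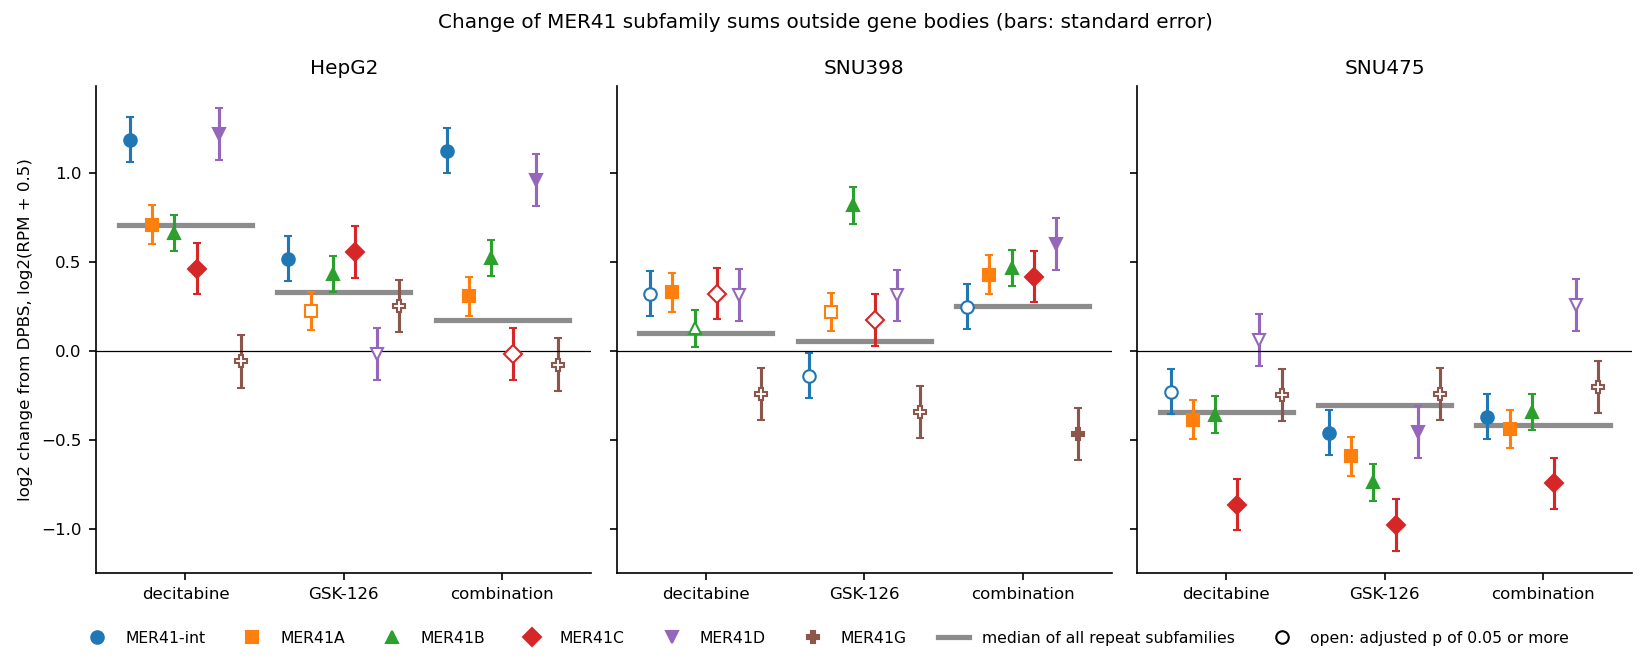
The vertical axis is the log2 change from DPBS of each MER41 subfamily outside gene bodies, on log2(RPM + 0.5), by line and treatment. Bars are standard errors, open symbols have an adjusted p of 0.05 or more, and grey lines give the median over all repeat subfamilies. In HepG2, MER41-int (1.19 and 1.12) and MER41D (1.22 and 0.96) stand above the grey line under decitabine and both drugs, and in SNU475 MER41C reads -0.86, -0.98 and -0.74.

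Among tested members, MER41-int differed most between HepG2 and each SNU line without treatment. DPBS libraries read 0.813 and 0.753 RPM in HepG2, 3.15 and 2.79 in SNU398 and 2.89 and 2.95 in SNU475. MER41-int was higher by 1.43 in SNU398 and by 1.42 in SNU475 than in HepG2 on the log2 scale, while the 2 SNU lines, with a difference of -0.02, overlapped. SNU398 minus HepG2 had 3 of 6 members higher (MER41-int, MER41A by 0.36 and MER41G by 0.39) and 2 lower (MER41C by -0.60 and MER41D by -0.36), where 49.4% of all subfamilies were higher and 22.2% lower. SNU475 exceeded HepG2 in 5 of 6, where 60.9% of all were higher and 15.7% lower, including MER41A (0.97), MER41B (0.57) and MER41C (0.51). It exceeded SNU398 in 4 of 6, where 42.2% of all were higher and 22.7% lower: MER41C by 1.11, MER41B by 0.70, MER41A by 0.61 and MER41D by 0.41.

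Rescaling by gene factors moved the median of all subfamilies by -0.265 for SNU398 minus HepG2, -0.172 for SNU475 minus HepG2 and 0.121 for SNU475 minus SNU398. The calls over all subfamilies went from 289 higher and 130 lower to 179 and 208 in the first of these comparisons, and from 356 and 92 to 298 and 132 in the second. MER41-int stayed higher than in HepG2 after rescaling, by 1.17 and 1.28, but MER41A (0.07) and MER41G (0.16) were no longer called between SNU398 and HepG2, and MER41B was called lower (-0.42). That left 1 member higher and 3 lower there. MER41C in that comparison was -0.24 and uncalled without its highest locus. MER41G between SNU475 and HepG2 came to 0.29 and was not called. Several calls ended without 1 library: without HepG2 library A, those of MER41A (0.25) and MER41G (0.27) for SNU398, and of MER41C (0.32) and MER41G (0.30) for SNU475. Without SNU398 library A this held for MER41G (0.20) and MER41D (-0.38) against HepG2, and for MER41D also without SNU398 library B (-0.35) or HepG2 library B (-0.32). Without SNU475 library A, MER41C (0.29) and MER41G (0.35) against HepG2 were uncalled, and MER41D against SNU398 was uncalled without SNU475 library B (0.05) or SNU398 library B (0.39).

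The change under both drugs was also compared between lines. SNU398 differed from HepG2 in 1 of 6 members, MER41-int, whose change was lower (-0.87), where 23.9% of all subfamilies had a lower change and 29.6% a higher one. SNU475 had a lower change than HepG2 in 5 of 6, where 67.0% of all subfamilies did and 5.98% had a higher one, and a lower change than SNU398 in 4 of 6, against 77.3% lower and 2.22% higher. Without its highest locus, the chromosome 8 copy, the MER41-int difference between SNU398 and HepG2 was -0.40, still called, and that between SNU475 and HepG2 was -0.97. MER41-int differed most between SNU475 and HepG2 (-1.49), and MER41C most between SNU475 and SNU398 (-1.16).

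In HepG2 and SNU398 more copies had a read under each treatment than under DPBS, and in SNU475 fewer. Expected at the depth of the shallowest library, 119.2 ± 13.7 outside loci (SD, n = 2) had a read in HepG2 under DPBS, 199.6 ± 9.33 under decitabine, 141.8 ± 2.33 under GSK-126 and 175.5 ± 6.36 under both. In SNU398 the means were 142.2, 181.1, 154.1 and 196.1 loci, and in SNU475 208.9, 188.7, 159.0 and 182.1. In SNU398 fewer loci had a read under GSK-126 than under decitabine, although the GSK-126 total was the higher one. In all 12 groups the mean share of outside MER41 copies with a read exceeded that of all outside repeats, for example 2.689% against 2.623% in HepG2 under GSK-126 and 3.581% against 2.308% in SNU475 under decitabine. In 1 library, HepG2 decitabine B, it was lower, at 3.662% against 3.69%. Inside genes it was lower than for all repeats in all 12 groups, for example 8.593% against 13.11% in HepG2 under decitabine.

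**Figure D3:**
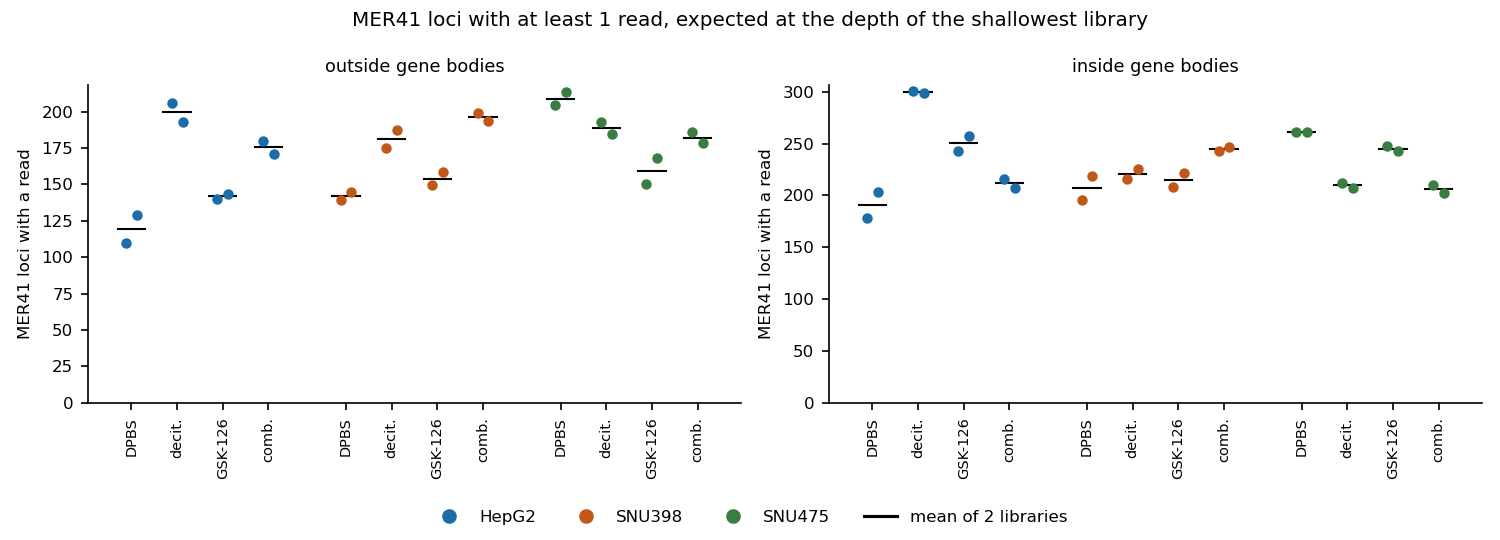
The vertical axes count MER41 loci with at least 1 read, expected if every library had the 32.6 M reads of the shallowest one, with 1 point per library and a bar at the mean. Outside genes HepG2 went from 119.2 loci under DPBS to 199.6 under decitabine, and SNU475 was highest under DPBS (208.9).

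Among the 41 tested outside loci, 23 (56.1%) reached 0.2 RPM in both libraries of a group in 1 line only, 9 did so in 2 lines and 2 in all 3. Another 7 reached it in no group. For all 10882 tested outside repeats the share in 1 line was 65.6% and in 3 lines 7.46%, with 1348 in 2 lines and 1581 in no group. A locus could enter the test on 1 line alone, so the filter bears on these shares. Locus values were tested on log2(RPM + 0.1) over all 61187 tested repeat loci, 50305 inside gene bodies and 10882 outside. The shares of all loci, here and below, are over both places together, so inside loci make up most of them. They are not shares of outside loci alone. In HepG2, 7 MER41 loci rose under decitabine (background 31.8%), 2 under GSK-126 (17.1%) and 6 under both (14.5%), and 0 fell in each (2.63%, 3.08% and 8.66%). In SNU398, 0 of 41 changed under decitabine by limma (1.34% of all loci rose and 0.387% fell), 1 rose and 2 fell under GSK-126 (2.94% and 3.94%), and 3 rose and 0 fell under both (4.42% and 1.09%). The SNU398 decitabine count was 4 at an unadjusted p under 0.05 and 2 with voom weights. In SNU475, 1 rose and 8 fell under decitabine (2.62% and 8.68%), 0 rose and 7 fell under GSK-126 (1.68% and 4.98%), and 1 rose and 9 fell under both (3.3% and 11.9%).

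The other comparisons called few loci apart from those between lines. Adding GSK-126 to decitabine raised 0 and lowered 1 of 41 in HepG2 (3.81% and 24.8% of all loci), a MER41A copy on chromosome 21, named here because it was the only call (log2 change -0.91). It raised 0 and lowered 1 in SNU398 (0.951% and 0.124%), and in SNU475 limma called 0 in either direction (0.0932% and 0.137%), with 4 at an unadjusted p under 0.05 and 0 with voom weights. The combination departed from the sum of the drugs upward at 0 and downward at 3 loci in HepG2 (3.05% and 29.9%), at 1 and 1 in SNU398 (1.88% and 1.0%) and at 3 and 0 in SNU475 (1.31% and 0.572%). Between DPBS groups, 17 loci were higher and 10 lower in SNU398 than in HepG2 (25.1% and 21.7%), 17 and 4 in SNU475 than in HepG2 (27.6% and 21.5%), and 15 and 12 in SNU475 than in SNU398 (22.2% and 19.9%). The change under both drugs was higher at 0 and lower at 3 loci in SNU398 than in HepG2 (6.29% and 6.3%), 1 and 8 in SNU475 than in HepG2 (4.71% and 15.8%), and 1 and 6 in SNU475 than in SNU398 (2.09% and 11.6%).

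Leaving out 1 library at a time moved the number of called loci to 4 to 7 for HepG2 decitabine, 1 to 2 for HepG2 GSK-126, 1 to 2 for SNU398 under both drugs, 5 to 6 for SNU475 decitabine, 3 to 5 for SNU475 GSK-126 and 4 to 7 for SNU475 under both. Loci below are on hg19. They are the 5 outside and 3 inside with the most reads, and those with the largest changes among called loci whose groups do not overlap. For a gene, the level is the scaled RPKM, and its log2 change is on log2(RPKM + 0.5).

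The MER41D locus at chr6:36320791-36321338, an LTR alone, lies 1081 bp downstream of ETV7, a gene for an ETS-family repressor that interferon is known to induce. HepG2 libraries A and B read 0.0192 and 0.0416 RPM under DPBS, 1.28 and 1.35 under decitabine, 0 and 0 under GSK-126, and 0.92 and 1.13 under both drugs. Both decitabine-containing groups stood far above the others, and the locus was named in part for its change there. The log2 changes were 3.44 ± 0.32 (SE, adjusted p = 1.3e-08) and 3.11. SNU398 read 0.0164 and 0.0175 RPM under DPBS and 0.208 and 0.311 under both drugs, a change of 1.60 (adjusted p = 0.0027), which was 1.40 and uncalled without combination library B. ETV7 in HepG2 had 0.00887 and 0 RPKM under DPBS, 0.454 and 0.716 under decitabine, 0.0193 and 0.0218 under GSK-126 and 0.793 and 0.945 under both. It rose by 1.09 and 1.44 in the HepG2 groups where the locus rose. In SNU398 it rose under GSK-126 (0.32), where the locus was not called, and under both drugs (0.31). In SNU475, by contrast, ETV7 rose by 1.52, 0.96 and 1.68, from 0.357 and 0.263 RPKM to as much as 2.12, while the locus (0.0378 and 0.216 RPM under DPBS, 0.158 and 0.135 under decitabine) was not called.

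The MER41B locus at chr4:74961892-74962441 begins 311 bp downstream of CXCL2, which encodes a neutrophil-attracting chemokine. It had 0 reads in both HepG2 DPBS libraries, 0.228 and 0.202 RPM under decitabine, 0.0204 and 0.0231 under GSK-126 and 0.123 and 0.174 under both. Against a floor of 3 reads per library, that was at least 3.56-fold higher under decitabine and at least 2.46-fold higher under both. In SNU475 the order was the opposite: 0.567 and 0.491 RPM under DPBS, 0.139 and 0.135 under decitabine, 0.0534 and 0.16 under GSK-126 and 0.387 and 0.336 under both. Log2 changes there were -1.41 ± 0.24 and -1.65 ± 0.24 for the single drugs, and -0.45 and uncalled for both. CXCL2 itself went from 0.872 and 0.964 RPKM to 8.33 and 8.14, 2.54 and 2.88, and 24.9 and 23.4 in HepG2 (log2 changes 2.62, 1.18 and 4.12). It fell in SNU475 from 12.3 and 12.1 to 6.11 and 6.92, 4.99 and 5.32, and 9.42 and 8.39 (-0.86, -1.17 and -0.44). Locus and gene thus had the same sign in HepG2 under decitabine and both drugs and in SNU475 under the single drugs. The locus was named for its change in these HepG2 groups. Whether reads here, or at the loci by ETV7 and RPLP0P2, belong to RNA of the gene beside them was not tested. The strand setting of the counts is not given. In HepG2 under GSK-126 the locus held 1 read in each library, below the floor, so its sign there is not known. CXCL2 was highest under both drugs in HepG2 and the locus under decitabine.

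The MER41B locus at chr11:61407385-61408003 lies 464 bp downstream of RPLP0P2, a ribosomal protein pseudogene. SNU398 had 0 reads in both DPBS libraries, 0.0359 and 0.13 RPM under decitabine, 2.53 and 2.12 RPM (128 and 119 reads) under GSK-126, and 0.116 and 0.073 under both drugs. GSK-126 alone thus gave at least a 45.2-fold higher value than the floor of 3 reads per library (fitted log2 change adjusted p = 2.1e-10), and the combination fell short of the sum of the drugs by -4.46 on the log2 scale. RPLP0P2 rose with it, from 0.0477 and 0.0466 RPKM to 2.21 and 2.19 under GSK-126 (2.30), and read 0.0785 and 0.108 under both. The combination call of the locus in SNU398 (adjusted p = 0.048) ended whichever library was left out (0.79 to 1.11). In HepG2 the locus rose under decitabine (0.136 and 0.0625 RPM to 0.297 and 0.381, log2 change 1.16) and under both (0.306 and 0.407, 1.21), and not under GSK-126. Without DPBS library B these were 0.89 and 0.95 and uncalled. RPLP0P2 in HepG2 rose by 0.51 and 1.03 in the same groups.

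**Figure D4:**
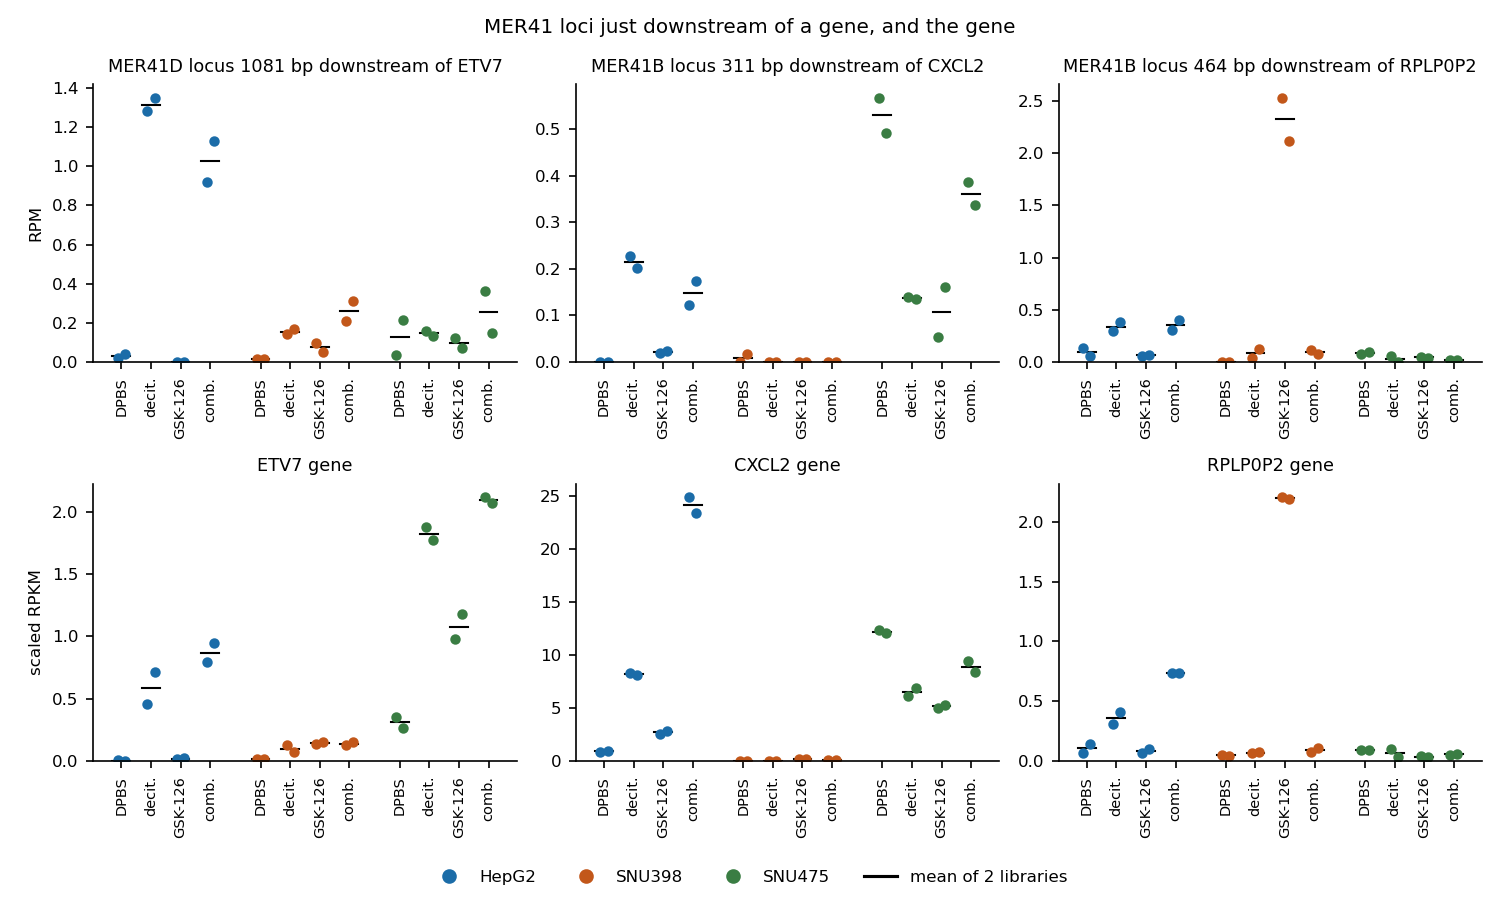
Upper panels give RPM of 3 MER41 loci that lie just downstream of a gene, and lower panels the scaled RPKM of that gene, with 1 point per library and a bar at the mean. The GSK-126 group of SNU398 stands alone for the RPLP0P2 pair (2.53 and 2.12 RPM). CXCL2 and its MER41B locus are raised in HepG2 under decitabine and both drugs but lowered in SNU475 under the single drugs.

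MER41C behaved most distinctly in SNU475, where a pair of its LTRs lies downstream of LINC00910, a long noncoding RNA gene on chromosome 17. The copy at chr17:41437325-41437822, 9391 bp from that gene, read 0.925 and 0.766 RPM under DPBS, 0.0593 and 0.174 under decitabine, 0.124 and 0.231 under GSK-126 and 0.315 and 0.336 under both. Its log2 changes were -2.17 ± 0.31 (adjusted p = 3.98e-05), -1.79 and -1.15. The copy at chr17:41429637-41430156, 17057 bp away, fell from 0.396 and 0.216 RPM to 0.0198 and 0.077, 0.0177 and 0.0889, and 0.0244 and 0.0842 (-1.44, -1.41 and -1.39). All treated libraries of both copies lay below both DPBS libraries. The naming rule itself required this for the first copy under the single drugs and for the second under both drugs. LINC00910 did not fall: it read 0.437 and 0.386 RPKM under DPBS and 0.531 and 0.5 under decitabine (0.16, called), and was uncalled for the other 2 treatments.

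In HepG2 the farther copy instead rose under decitabine (0.0967 and 0.125 RPM to 0.365 and 0.246, log2 change 0.93) and under GSK-126 (0.548 and 0.345, 1.35), but not under both (0.184 and 0.116, 0.24). The nearer copy read 0.522 and 0.607 under DPBS and was not called in HepG2. Single libraries carried some of these calls. Those of the farther copy ended without SNU475 DPBS library A (-1.12, -1.08 and -1.06) or without library A of each treatment (-1.16, -1.07 and -1.10). In HepG2 its decitabine call ended without DPBS library A (0.83) or decitabine library A (0.72). The combination call of the nearer copy ended without DPBS library A (-1.03), combination library A (-1.11) or combination library B (-1.18).

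Internal sequence was represented by 3 outside loci. The locus at chr8:144042410-144044147, of 1738 bp and 19008 bp from the nearest gene, the long noncoding RNA RP11-273G15.2, read 0.0191 and 0.188 RPM in HepG2 under DPBS. It read 0.822 and 0.561 under decitabine, 0.04 and 0.0695 under GSK-126 and 0.827 and 1.37 under both. The locus was named for its change in the decitabine-containing groups, with log2 changes of 2.08 ± 0.33 (adjusted p = 3.4e-05) and 2.655 ± 0.33. SNU398 rose under both drugs, also a comparison that named it (0.033 and 0.0174 to 0.346 and 0.275 RPM, 1.71). SNU475 read 0.0574 and 0.0782 under DPBS and at most 0.214 under a treatment, and was not called.

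The locus at chr21:33930516-33931154, which lies 4231 bp upstream of the 5S rRNA copy RNA5SP490, rose in HepG2 under GSK-126 only (0.135 and 0.105 RPM to 0.304 and 0.437, log2 change 1.085). That call ended without library B of DPBS (0.98) or of GSK-126 (0.88). The locus at chr3:84094755-84095428, 107368 bp from the pseudogene SRRM1P2, had reads in SNU398 only, and 0 reads in all HepG2 and SNU475 libraries. It read 0.398 and 0.301 RPM under DPBS, 0.452 and 0.371 under decitabine, 0.119 and 0.089 under GSK-126 and 0.185 and 0.22 under both. GSK-126 lowered it by 1.135 ± 0.18 on the log2 scale (adjusted p = 1.6e-04), and the value under both drugs lay below that under decitabine (-0.76), a call that ended whichever library was left out (-0.64 to -0.87).

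Other outside LTRs showed further patterns. MER41B at chr12:31949094-31949724, 3919 bp upstream of the histone gene H3F3C, rose in SNU475 from 0.0189 and 0.0196 RPM to 0.277 and 0.386 under decitabine and 0.29 and 0.357 under both, with 0 reads under GSK-126. Its log2 changes were 1.84 ± 0.18 and 1.825, and it was the only outside MER41 locus called higher than DPBS in that line, while H3F3C read 2.26 and 2.22 RPKM under DPBS and 1.85 and 1.69 under decitabine. MER41E at chr1:149225303-149225854, 1082 bp upstream of the U1-type small nuclear RNA gene RNVU1-18, read at most 0.0684 RPM in HepG2 but 0.563 and 0.584 in SNU398 and 0.359 and 0.354 in SNU475 under DPBS. Under decitabine it read 0.178 and 0.155 in SNU475 (log2 change -0.78), a call that ended without any 1 of the 4 libraries (-0.72 to -0.84). RNVU1-18 followed the same order of lines only in part: 1.18 and 0.699 RPKM in HepG2, 15.7 and 17.9 in SNU398 and 28.9 and 32.0 in SNU475, falling there to 11.9 and 12.5 under decitabine.

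The outside locus with the highest mean was not called for any treatment. MER41G at chr19:58135677-58136199, of 523 bp, averaged 0.841 RPM over the 24 libraries and lies 201 bp upstream of the long noncoding RNA AC003682.16 and 953 bp from ZNF134, a zinc finger gene. Its lowest library read 0.571 and its highest 1.41 RPM. Its group means ran from 0.642 (HepG2 under both drugs) to 1.16 (SNU398 under DPBS), with log2 changes from -0.68 (SNU398 under both drugs, adjusted p = 0.082) to 0.33 (HepG2 under GSK-126, adjusted p = 0.35).

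**Figure D5:**
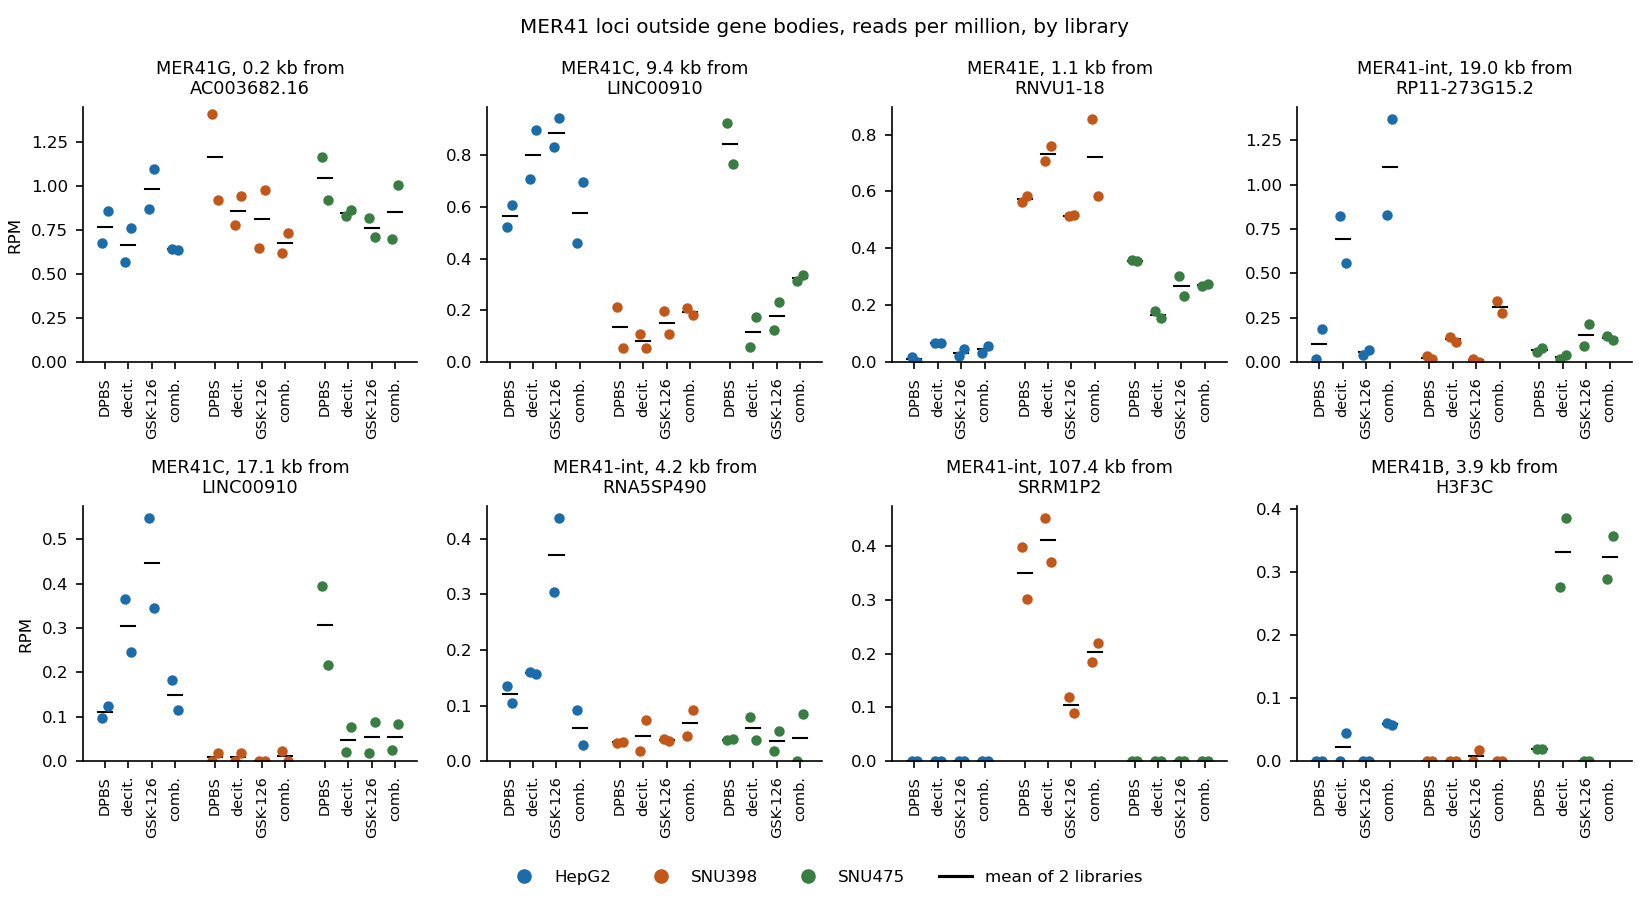
Each panel gives RPM (vertical axis) of a MER41 locus outside gene bodies in the 24 libraries, titled by the distance to its nearest gene, with a bar at the mean of 2 libraries. The MER41G locus reads 0.571 to 1.41 RPM over the libraries, both MER41C loci are higher in SNU475 under DPBS than under any treatment and are also high in HepG2 under GSK-126, and the locus near SRRM1P2 has reads in SNU398 only.

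Inside gene bodies, where reads of the host gene's unspliced RNA fall on the copies too, 786 subfamilies and 6 MER41 members were tested. Decitabine raised 5 of 6 in HepG2 and lowered 0 (82.6% and 4.2% of all inside), among them MER41C (log2 change 0.81), MER41B (0.72) and MER41-int (0.35, and 0.77 without its COQ7 copy), and GSK-126 raised 3 and lowered 0 (72.3% and 6.23%). Without the COQ7 copy MER41-int was also called under GSK-126 (0.41). Both drugs raised MER41C (0.60) and lowered MER41-int (-0.53) and MER41D (-0.28), where 31.9% rose and 37.3% fell. In SNU398, 0 were called under decitabine by limma (7.0% of all rose, 3.94% fell), with 2 at an unadjusted p under 0.05 and 1 with voom weights. There 0 rose and 1 fell under GSK-126 (11.7% and 25.2%), and 2 rose and 1 fell under both (44.0% and 3.69%). SNU475 had 4, 3 and 4 members lower under decitabine, GSK-126 and both, against 63.6%, 47.5% and 68.3% of all subfamilies, and 0 higher in each (6.36%, 5.73% and 5.85%). MER41B fell most in each, by 0.63, 0.67 and 0.74 on the log2 scale. Rescaling moved the inside median in SNU398 under GSK-126 by 0.147, and the calls from 92 higher and 198 lower to 229 and 78. Without DPBS library A, 3 of 6 were called in HepG2 under decitabine, and leaving out any library left 0 or 1 of the 3 calls in SNU398 under both drugs.

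Adding GSK-126 to decitabine lowered 5 of 6 inside members in HepG2 and raised 0 (81.4% and 4.83% of all), most of all MER41-int (-0.88) and MER41B (-0.82). All 6 fell short of the sum of the drugs there, MER41B by most (-1.38), where 86.5% of all were short and 2.54% beyond. In SNU398 adding GSK-126 raised 1, MER41B (0.26), and lowered 0 (37.9% and 0.509%), and MER41A lay beyond the sum (0.37), 1 of 6 with 0 short (40.6% and 3.69%). In SNU475 limma called 0 of 6 between decitabine and both drugs (0.891% rose, 2.54% fell), with 2 at an unadjusted p under 0.05 and 0 with voom weights. Here 1 member, MER41B, lay beyond the sum (0.56) with 0 short (22.6% and 4.07%).

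Under DPBS, SNU398 exceeded HepG2 inside genes in MER41A (0.58), MER41D (0.62) and MER41E (0.70), or 3 of 6 with 0 lower (57.8% and 19.7% of all). Rescaling by gene factors turned the calls over all subfamilies from 454 higher and 155 lower to 231 and 272, and then MER41-int (-0.44) and MER41B (-0.35) were called lower. MER41D was 0.02 without its highest locus. SNU475 exceeded HepG2 in MER41B (0.83) and MER41D (0.56), with 0 lower (61.8% and 15.6%), but after rescaling MER41-int (-0.345) and MER41A (-0.29) were called lower. The MER41B difference was 0.43 without its highest locus, still called. Against SNU398 it was higher in MER41B (0.87) and lower in MER41A (-0.68) and MER41E (-0.70), where 39.3% were higher and 23.4% lower, and without the highest loci MER41B was 0.48 and MER41D 0.53, both called. The change under both drugs was higher in 2 and lower in 0 members in SNU398 than in HepG2 (42.0% and 15.8%), in 0 and 3 in SNU475 than in HepG2 (11.3% and 53.7%), and in 0 and 3 in SNU475 than in SNU398 (3.69% and 72.8%). MER41-int was not called between untreated lines inside genes (-0.12, -0.16 and -0.04), but without the COQ7 copy it was called higher in SNU398 (0.43) and SNU475 (0.29) than in HepG2.

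Single inside copies did not always follow their host. The MER41-int copy at chr16:19091242-19093266 within COQ7, a coenzyme Q synthesis gene, read 2.71 and 3.6 RPM in HepG2 under DPBS, 2.4 and 2.31 under decitabine, 2.51 and 1.98 under GSK-126 and 1.07 and 1.1 under both. It fell by 1.44 ± 0.24 on the log2 scale under both drugs (adjusted p = 5.3e-05), while COQ7 rose by 0.21. Without this copy the HepG2 change of MER41-int inside genes was -0.04. In SNU475 it fell under decitabine (-1.02) and both drugs (-0.97), and COQ7 was not called. The MER41A copy at chr2:172179281-172179712 within METTL8, an RNA methyltransferase gene, was the most abundant of all, at 4.08 and 4.58 RPM in SNU398 under DPBS. It fell to 2.8 and 3.01 under GSK-126 and 2.79 and 2.84 under both (-0.56 and -0.60), and METTL8 fell by 0.23 and 0.46. The 66 bp MER41C copy at chrX:129041389-129041454 within UTP14A, a ribosome biogenesis gene, rose in HepG2 under all 3 treatments (0.74, 1.015 and 1.04), as did UTP14A (0.35, 0.74 and 0.76).

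The copies near the studied interferon genes gave almost no reads. The MER41E copy at chr1:159046870-159047308 held 7 reads over the 24 libraries. It overlaps the AIM2 gene body as annotated on hg19 (159032274 to 159116886). Its place relative to the AIM2 start of the GRCh38 sequence above was not measured. The MER41G copy within APOL1 (chr22:36654549-36655116) held 10 reads. The 5 MER41B and MER41-int copies 17938 to 23475 bp from IFI6 held 0 reads. Of the 2 MER41G copies by SECTM1, the one 4846 bp away held 33 reads, with at most 5 in a library. At this depth no change of these copies could be measured, and RNA from a copy is not a measure of enhancer activity.

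The genes themselves changed. IFI6, an interferon-induced mitochondrial protein gene, rose in SNU398 from 12.2 and 12.6 RPKM to 46.6 and 48.3 under decitabine, 33.9 and 33.7 under GSK-126 and 31.3 and 33.3 under both. In SNU475 its DPBS mean was 20.7 RPKM and its treated libraries read 62.8 to 80.8 (1.88, 1.59 and 1.93), and in HepG2 it rose under both drugs (8.13 and 7.45 to 34.6 and 32.7, log2 change 2.04) but fell under GSK-126 (-0.34). AIM2, a sensor of DNA in the cytosol, rose in SNU475 from 0.0086 and 0.0375 RPKM to 0.374 and 0.443, 0.219 and 0.2, and 0.515 and 0.55 (0.80, 0.44 and 0.98). It was not called in HepG2 or SNU398. APOL1, a lipid-bound innate defence gene, fell in HepG2 from 41 and 40.8 to 9.98 and 10.3, 6.05 and 6.49, and 12.6 and 11.9 (-1.96, -2.61 and -1.70), but rose in SNU475 (0.53, 0.21 and 0.49). SECTM1, a transmembrane protein gene, rose in SNU475 under decitabine (0.80) and both drugs (1.325). So SNU475, in which MER41 RNA fell, had 4, 3 and 4 of these 4 genes higher and 0 lower. Of all genes, 24.2%, 21.5% and 25.3% rose there and 27.3%, 28.5% and 29.6% fell. HepG2 had 1 higher and 1 lower under decitabine, 0 and 2 under GSK-126 and 1 and 2 under both, with SECTM1 lower under both drugs (-0.30). Over all HepG2 genes, 35.9%, 31.0% and 40.6% rose and 18.3%, 21.7% and 25.9% fell. SNU398 had 1 higher, IFI6, and 0 lower under each treatment. There 23.4%, 30.0% and 28.9% of all genes rose and 15.4%, 22.4% and 18.4% fell. Counts over 4 genes can be set beside these shares only roughly.

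Interferon signalling genes outside that set differed by line and, in HepG2, by treatment. Of 17 tested in a list chosen with earlier results of these data known, 12 rose and 0 fell in HepG2 under decitabine (35.9% and 18.3% of all genes), 5 and 5 under GSK-126 (31.0% and 21.7%), and 13 and 1 under both (40.6% and 25.9%). The medians were 0.22, 0.06 and 0.45, beside 0.07, 0.03 and 0.08 over all genes. SNU398 had 9 and 0, 10 and 2, and 13 and 1 (all genes 23.4% and 15.4%, 30.0% and 22.4%, 28.9% and 18.4%). SNU475 had 6 rises and 8 falls, 6 and 10, and 5 and 8 (all genes 24.2% and 27.3%, 21.5% and 28.5%, 25.3% and 29.6%). IRF1, a transcription factor induced by interferon, rose in all 9 comparisons, in HepG2 from 1.03 and 0.988 to 3.07 and 3.17, 1.87 and 2.02, and 4.46 and 4.39. IRF9, the DNA-binding part of the complex formed after type I interferon, rose under decitabine and both drugs in each line (0.36 to 0.71), and under GSK-126 in SNU475 only (0.47). The feedback inhibitor SOCS3 rose in HepG2 under both drugs (2.26) and fell in SNU475 (-0.90).

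Genes that silence repeats were called in both directions, in SNU398 mostly lower, beside the shares of all genes given above. Of 17, HepG2 had 7 higher and 8 lower under decitabine, 7 and 9 under GSK-126 and 7 and 9 under both. SNU398 had 3 and 7, 3 and 12, and 2 and 11, where 15.4%, 22.4% and 18.4% of all genes fell and 23.4%, 30.0% and 28.9% rose. The SNU398 medians of the list were -0.05, -0.25 and -0.20, beside 0.02, 0.02 and 0.03 over all genes. SNU475 had 8 and 8, 7 and 8, and 8 and 8. DNMT1, the maintenance DNA methyltransferase that decitabine traps, was lower in HepG2 (-0.14, -0.77 and -0.24) and SNU398 (-0.11, -0.55 and -0.13) but higher in SNU475 (0.22, 0.27 and 0.28). EZH2, the target of GSK-126, read 8.37 and 8.8 RPKM in HepG2 under DPBS and 4.42 and 4.48 under GSK-126 (-0.88), and rose under GSK-126 in SNU398 (0.32) and SNU475 (0.51). Both drugs act on the proteins, so these RNA levels do not check the dosing. TRIM28 rose in SNU475 (0.25, 0.40 and 0.41) and fell in SNU398 (-0.28, -0.46 and -0.21). SETDB1 rose in HepG2 under GSK-126 (4.56 and 4.17 to 6.09 and 6.38, 0.47) and fell slightly in SNU475 (-0.14, -0.17 and -0.18). Their part in the MER41 values was not tested.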

How the data were processed

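Total RNA depleted of ribosomal RNA was sequenced as single-end reads in 24 libraries. Per the submitters' processing notes HISAT2, featureCounts and hg19 were used. Not given in the sources used here were versions, the strand setting and the treatment of reads that fit several loci. The deposited tables hold RPKM per repeat locus and per gene, rounded by the authors to 3 decimals, and 0 value columns could not be matched to a library. Library denominators were recovered from the steps of the deposited RPKM, and 100% of values came out as whole reads within 0.15, so RPM is RPKM times length in kb.

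Of 5298130 loci, 800959 were left out by name (simple repeats and RNA genes, for example) and 4497171 kept. A locus was inside where it overlapped a gene body. RPM was summed per subfamily. Subfamilies needed 1 RPM in 2 libraries (pseudocount 0.5), loci 0.2 RPM (pseudocount 0.1) and genes 0.5 RPKM (pseudocount 0.5, scaled by median of ratios over 8211 genes). limma 3.58.1 in R 4.3.3 fitted 12 group means with trend and robust settings (12 residual degrees of freedom), with Benjamini-Hochberg adjustment over all features of each of 21 comparisons and a threshold of 0.05. The scripts were tested on simulated data. Python 3.11.15 and pandas 2.3.3 prepared the tables.

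The named loci are the 5 outside and 3 inside of highest mean RPM and, in each treatment comparison, the 3 outside loci with the highest and the 1 with the lowest change among called loci without overlap. The members and lists were chosen with earlier results of these data known. A gene of the interferon list is counted but its own values are not reported here. Alternatives covered pseudocounts, filters, gene scaling, voom weights, the line's libraries alone, copies far from genes, a replicate block and leaving out each library; sums without the highest locus were added after seeing the data.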

Additional observations from a re-analysis of the deposited data

Results flagged for a closer look

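The change under both drugs, against DPBS, differed between lines for several members by limma's test of the difference itself. Outside genes, the MER41-int change was lower in SNU398 than in HepG2 by -0.87 on the log2 scale (23.9% of all subfamilies were called lower in that comparison), and lower in SNU475 than in HepG2 by -1.49. Without the highest MER41-int locus these were -0.40 and -0.97, both called. For SNU475 against HepG2, where 67.0% of all subfamilies were called lower, the differences were -0.74 for MER41A, -0.87 for MER41B, -0.73 for MER41C and -0.70 for MER41D. The MER41D value was -0.34 and uncalled without SNU475 DPBS library B. For SNU475 against SNU398, where 77.3% were called lower, they were -0.62 for MER41-int, -0.87 for MER41A, -0.81 for MER41B and -1.16 for MER41C.

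Inside genes, SNU398 against HepG2 gave 0.81 for MER41-int, which was 0.30 and uncalled without the COQ7 copy, and 0.39 for MER41B. SNU475 against HepG2 gave -0.30 for MER41A, -0.64 for MER41B and -0.45 for MER41D, and SNU475 against SNU398 gave -0.88 for MER41-int, -1.03 for MER41B and -0.78 for MER41D.

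Among single loci, the MER41B copy by CXCL2 differed by -1.42 for SNU398 against HepG2 and by -1.75 for SNU475 against HepG2. The MER41D copy by ETV7 differed by -1.51 and -2.41 in the same comparisons, and the MER41-int copy on chromosome 8 by -2.16 for SNU475 against HepG2. The MER41B copy by RPLP0P2 differed by -1.82 for SNU475 against HepG2 and -1.56 against SNU398, and the MER41B copy by H3F3C by 1.15 and 1.83. The MER41C copy 17057 bp from LINC00910 differed by -1.62 and -1.42, and the copy 9391 bp away by -1.57 against SNU398. These comparisons share the libraries of each line and are not independent of one another. The copies were named for a large change under a treatment in a line, so the differences were in part set by that choice. Of all tested loci, 6.3% were called lower and 6.29% higher for SNU398 against HepG2. The shares were 15.8% and 4.71% for SNU475 against HepG2, and 11.6% and 2.09% for SNU475 against SNU398.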

How the results depend on the processing

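Depth was a limit: with 419 to 918 outside MER41 reads in a library, most copies could not be tested one by one. The values in this section are numbers of members called, unless given as a log2 value.

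Leaving out copies within 5 kb of a gene changed the number of called outside subfamilies in SNU398 from 1 to 2 under decitabine, 1 to 0 under GSK-126, 5 to 2 under both drugs and 1 to 0 for the departure from additivity, and for SNU398 minus HepG2 under DPBS from 5 to 2. MER41D, MER41E and MER41G had too few reads for a test there. Without each subfamily's highest locus, chosen after seeing the data, the counts were 0 for SNU398 GSK-126, 3 for both drugs, 0 for its departure, 2 for the SNU475 departure, 2 for SNU398 minus HepG2 and 3 for the SNU475 minus HepG2 combination effect. MER41D and MER41G could not be tested. The departure from additivity turned sign for MER41-int in HepG2 far from genes (0.0773) and for MER41B in SNU398 (0.38 far from genes, 0.23 without its highest locus). SNU398 decitabine gave 2 calls with a pseudocount of 1 RPM, the line's libraries alone or voom weights, and SNU398 GSK-126 gave 3 when scaled and 2 with the line alone.

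Inside genes, HepG2 under both drugs gave 1 call without the highest loci. SNU398 decitabine gave 1 with the lower filter, the line alone or voom, SNU398 GSK-126 gave 2 when scaled, with the lower filter or without the highest loci, and its departure gave 0 when scaled and 2 with the line alone or voom. The SNU475 departure gave 2 with the lower filter. SNU398 minus HepG2 gave 5 and SNU475 minus HepG2 4 when scaled, and the SNU475 minus HepG2 combination effect 5 without the highest loci.

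For outside loci the lower filter gave 12 calls for HepG2 decitabine, 4 for GSK-126, 6 for both drugs minus decitabine and 9 for the departure, 1 for SNU398 decitabine, 0 for SNU398 both minus decitabine, 1 for its departure and 43 for SNU475 minus HepG2. The line's libraries alone gave 3, 0 and 0 for HepG2 decitabine, GSK-126 and both minus decitabine, 0 and 1 for SNU398 both minus decitabine and departure, and 4, 1, 2 and 0 for SNU475 decitabine, GSK-126, both and departure. Copies far from genes gave 2, 1, 1, 0 and 1 for HepG2 decitabine, GSK-126, both, both minus decitabine and departure, 3 and 1 for SNU398 both minus decitabine and departure, 4, 3, 5 and 1 for SNU475, and 14, 9 and 15 for the DPBS comparisons. They gave 1 and 4 for the combination effects of SNU398 and SNU475 minus HepG2. Voom gave 0 for the HepG2 departure, 2, 0 and 1 for SNU398 decitabine, both minus decitabine and departure, 4 for SNU475 GSK-126, and 1 and 3 for the combination effects of SNU398 minus HepG2 and SNU475 minus SNU398. A pseudocount of 0.5 gave 2 and 5 for HepG2 both minus decitabine and departure, 1, 6, 4 and 4 for SNU398 decitabine, both, both minus decitabine and departure, and 12, 1 and 6 for SNU475 GSK-126, both minus decitabine and departure. A pseudocount of 0.05 gave 0 for HepG2 both minus decitabine, and 0 and 1 for SNU398 both minus decitabine and departure. Scaling gave 2 for HepG2 both minus decitabine and 1 for the SNU398 departure.

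Leaving out 1 library gave, for outside subfamilies, 1 to 2 for HepG2 both minus decitabine, 0 for SNU398 decitabine, 1 to 2 for GSK-126, 3 to 5 for both, 0 to 1 for both minus decitabine and for the departure, 3 to 4 and 3 to 5 for SNU398 and SNU475 minus HepG2, and 1 to 2 for the SNU398 minus HepG2 combination effect. Inside it gave 3 to 5 for HepG2 decitabine, 0 to 1 for SNU398 both and both minus decitabine, 1 to 2 for its departure and 1 to 3 for that combination effect. For loci it gave 4 to 7, 1 to 2, 0 to 4 and 2 to 5 for HepG2 decitabine, GSK-126, both minus decitabine and departure, 1 to 2, 0 and 1 to 3 for SNU398 both, both minus decitabine and departure, 5 to 6, 3 to 5 and 4 to 7 for SNU475, and 1 to 4 and 4 to 7 for the SNU398 minus HepG2 and SNU475 minus SNU398 combination effects. The causes were not tested.

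The letters A and B did not pair the libraries: over 66 pairs of groups the correlation of deviations ran from -0.127 to 0.164 (median 0.00905), and 4 exceeded 0.1. The replicate block moved the SNU398 decitabine count inside genes from 0 to 1 and the HepG2 loci of both minus decitabine from 1 to 0.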
